A study of Mus musculus with 15 samples.

Results

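The keratin genes of the mouse encode the intermediate filament proteins of epithelial cells, and their levels were followed through development of the secondary palate, the roof of the mouth. Members were the protein-coding genes whose symbol is Krt followed by a number and at most a letter and which had at least 10 counts in at least 3 of the 15 libraries. This left 40 of 53 protein-coding keratins, in a table of 54232 genes. The rule asked only for a minimum count, not for any change between stages, but it can pass a gene through the stages where it is high. All 40 also entered the fit across 22151 genes. The other 13 (Krt2, Krt12, Krt33a, Krt35, Krt39, Krt40, Krt42, Krt71, Krt81, Krt82, Krt84, Krt86 and Krt88) had too few counts.

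RNA was taken from dissected palates of wild-type mice at 4 embryonic ages, written E13.5, E14.5, E15.5 and E16.5 for the day of gestation, and on the day of birth (P0). Each stage had 3 libraries, each made from the palates of 3 embryos pooled, so p-values measure the spread between pools. All 5 groups carry the same wild-type genotype, and age is the only difference that the labels name. Depth went with age, at 58245101 to 69019565 counts per library up to E15.5 and 21470759 to 52258321 at E16.5 and P0. The palate was sequenced whole, so each value mixes oral epithelium, nasal epithelium, mesenchyme, bone and muscle, and fewer cells of a type cannot be told apart from less RNA per cell.

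Keratin filaments are built from pairs of an acidic type I and a basic type II keratin, and a cell's pair marks its kind of epithelium. Krt5 with Krt14, and Krt15, mark the basal layer of stratified epithelia, Krt4 with Krt13 the upper layers of the non-cornified lining of the mouth, and Krt1 with Krt10 those of epidermis and other cornified epithelia. Krt8 with Krt18, together with Krt7 and Krt19, mark simple epithelia such as ducts and airway lining as well as early embryonic surface epithelia. Krt6a, Krt6b, Krt16 and Krt17 are found in appendages, in oral epithelium and in epithelium under stress. Many other keratins belong to the hair shaft and to the inner root sheath, the sleeve around a growing hair.

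The libraries held between 21470759 and 69019565 counts each, and 26 to 40 members had more than 3 counts in a library. The 3 counts taken as the detection floor stood for 0.0435 to 0.140 CPM (counts scaled to a fixed library total) on the unadjusted total, and this floor covers counting error only. Levels below are CPM on totals adjusted by the trimmed mean of M values, and a comparison between genes uses CPM per kilobase of the counted gene model. The defining markers of a stratified palate epithelium, Krt5 and Krt14, had at least 2107 counts in every library. Several libraries stand apart. E15.5 replicate 3 held far more epidermal and hair keratin than the other libraries of its stage (below). E15.5 replicate 1 held 290.2 CPM of 16 general epithelial genes against 816 and 921 in the other E15.5 libraries, and its keratin sum was the lowest from E15.5 on. E16.5 replicate 1 leaned to simple epithelial keratins, and its nasal and ciliated marker sum was 1755 CPM against 665 and 631 in the other E16.5 libraries. Choroid plexus markers, genes of a brain tissue, summed to 1517 and 889 CPM in E14.5 replicates 1 and 3 against 66.5 to 808 in the other libraries. Skeletal muscle markers summed to 7114 CPM in P0 replicate 3 against 34112 and 42069 in the other P0 libraries. Osteoblast markers summed to 1023 to 2205 CPM at E14.5 and to 14168 to 16407 CPM at E15.5. The part of these differences in the keratin results was not tested beyond the values without each library.

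The members lie in 2 clusters. On chromosome 11, 21 type I genes lie within 1028269 bases (99232761 to 100261029, build GRCm38), all on the minus strand, among 67 protein-coding genes that include 23 keratin-associated protein genes. On chromosome 15, 19 members lie within 684584 bases (101347444 to 102032027). They comprise the 18 type II genes and Krt18, the type I partner of Krt8, and only Krt7 and Krt18 lie on the plus strand. Of the 40 members, 28 had an entry among RefSeq promoters (GRCm38.p6), and 19 of these had a start within 10 bases of the counted gene's. The letters ATAAA, the core of a TATA box, stood on the gene's strand between 40 and 11 bases before the start in 12 of these 19 (63.2%) against 4.68% of 32851 promoters. The 32851 were not filtered for a start near that of a counted gene, as the 19 were, so the shares here and below rest on unlike sets. The letters GGGCGG (a GC box, either strand) were in 1 of 19 (5.26%) against 35.7%, and TGANTCA, with any base at N, in 1 of 19 (5.26%) against 7.81%. TGANTCA is a loose pattern for sites of AP-1 factors. It reads alike on both strands as a pattern, but a single match such as TGAATCA does not. GGGCGG and TGANTCA were sought over the 300 bases from 250 before the start to 50 after it. All these matches are letters in a window, not sites shown to be used. The 250 bases before the start are printed for 4 members with different courses over the stages: Krt13 (chr11:100121567-100121816), Krt5 (chr15:101712906-101713155), Krt76 (chr15:101892921-101893170) and Krt10 (chr11:99389365-99389614), all on the minus strand and read 5′ to 3′. Capitals mark ATAAA, which begins 29, 29, 28 and 25 bases before the start, in that order, and in Krt13 also TGAATCA, 196 bases before it.
Krt13: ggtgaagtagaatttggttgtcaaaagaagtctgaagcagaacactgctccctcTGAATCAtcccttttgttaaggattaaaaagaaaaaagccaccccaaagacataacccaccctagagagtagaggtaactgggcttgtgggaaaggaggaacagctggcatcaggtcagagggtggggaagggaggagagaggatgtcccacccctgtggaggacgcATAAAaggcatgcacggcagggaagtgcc
Krt5: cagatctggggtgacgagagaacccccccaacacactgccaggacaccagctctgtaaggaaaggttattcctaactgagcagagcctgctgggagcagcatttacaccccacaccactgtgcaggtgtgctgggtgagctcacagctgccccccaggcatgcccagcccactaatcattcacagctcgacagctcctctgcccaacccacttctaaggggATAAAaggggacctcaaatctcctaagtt
Krt76: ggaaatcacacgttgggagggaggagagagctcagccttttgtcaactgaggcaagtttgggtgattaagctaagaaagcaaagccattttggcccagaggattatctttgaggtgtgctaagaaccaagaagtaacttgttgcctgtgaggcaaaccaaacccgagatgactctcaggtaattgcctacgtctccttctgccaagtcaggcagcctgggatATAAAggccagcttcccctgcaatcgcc
Krt10: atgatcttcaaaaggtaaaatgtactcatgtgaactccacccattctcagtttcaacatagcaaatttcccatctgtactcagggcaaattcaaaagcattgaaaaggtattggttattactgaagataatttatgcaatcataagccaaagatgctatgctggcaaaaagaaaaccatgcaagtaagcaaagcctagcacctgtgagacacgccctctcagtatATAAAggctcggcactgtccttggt

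Keratin transcripts were scarce at E13.5 and E14.5 and several times more abundant from E15.5 on. Their share of all counts was 0.0234% to 0.0563% at E13.5 and 0.0377% to 0.0577% at E14.5. It was 0.0723%, 0.189% and 0.334% in the E15.5 libraries, 0.208%, 0.214% and 0.348% at E16.5, and 0.168%, 0.462% and 0.727% at P0. Every library from E15.5 on lay above every earlier one. Set against the 16 general epithelial genes (Cdh1, Epcam and others), the keratin sum was 0.848 ± 0.244 times theirs (SD, n = 3) at the earliest stage and 1.25 ± 0.0161 times at E14.5. It reached 2.63 ± 0.634 times at E15.5, 4.10 ± 1.02 times a day later and 4.62 ± 1.3 times in newborns. The keratin sum was thus higher from E15.5 on relative to other epithelial transcripts as well as to the whole. Of 40 members, 26 had their highest stage mean at P0, 10 at E15.5 and 4 at E16.5, and none before E15.5. Among the 10, Krt1, Krt10, Krt25, Krt27, Krt28, Krt72, Krt73 and Krt77 had their highest value in E15.5 replicate 3, which stands apart (below). The lowest stage mean was at E13.5 for 30, at E14.5 for 9 and at P0 for 1, Krt73. Shares over all genes are not given for these highest and lowest stages.

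**Figure D1:**
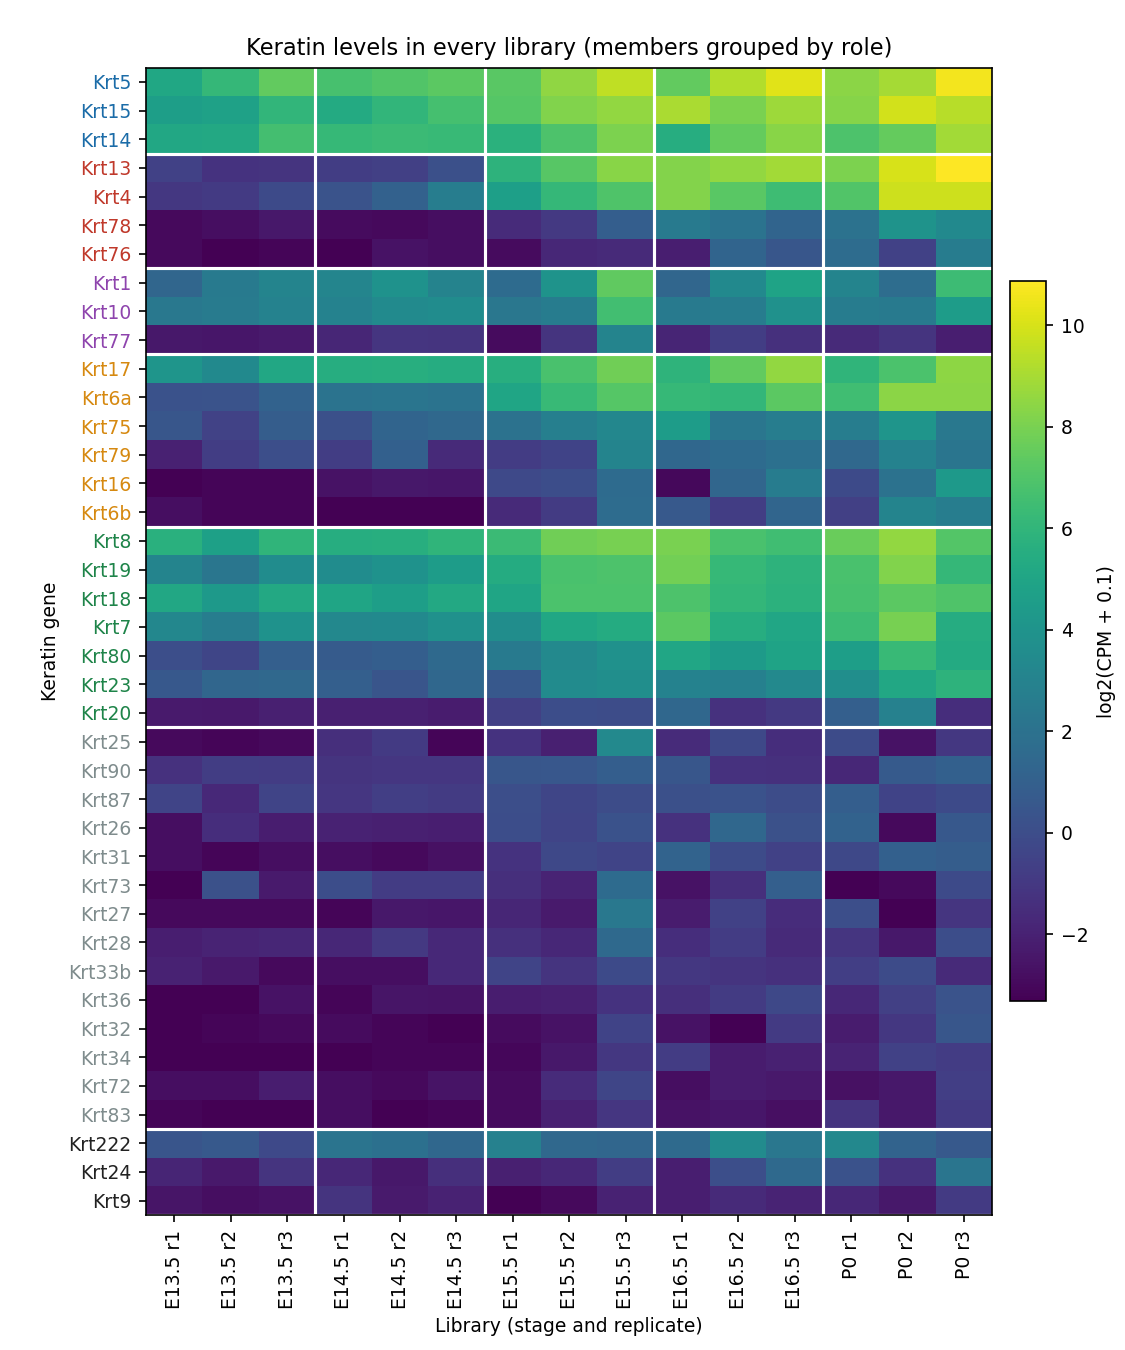
Level of the 40 keratins (rows, grouped and coloured by role) in the 15 libraries (columns, by stage and replicate), as log2(CPM + 0.1). Among abundant keratins the step between E14.5 and E15.5 is largest for Krt13 and Krt4, and the epidermal and hair keratins stand out in E15.5 replicate 3.

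In edgeR's quasi-likelihood test with Benjamini-Hochberg adjustment over all 22151 genes, no member passed 0.05 between E13.5 and E14.5, where 0.00903% of all genes did, all of them higher. In 10 members every E14.5 library lay above every E13.5 library, beside 15.5% of all genes, and in 1 below, beside 13.7%. Unadjusted p was under 0.05 for 3 members, and DESeq2 called 1, Krt4. Between E14.5 and E15.5, 18 of 40 rose (45%) and none fell, beside 26.1% of all genes called, 12.7% higher and 13.4% lower. The median log2 fold change of the members was 2.23, that of all genes 0.03. In 21 members (52.5%) every E15.5 library lay above every E14.5 library, beside 24% of all genes, and in none below, beside 27.2%. From E15.5 to E16.5 and from E16.5 to P0 no member passed. Of all genes 1.41% did in the earlier step (1.03% higher and 0.379% lower) and 0.352% in the later one (0.19% higher and 0.163% lower). The libraries of each pair of stages lay apart, the later stage higher, in 2 members each, beside 15.7% and 6.23% of all genes, and lower in none, beside 15.5% and 5.39%. In each of these 2 steps 5 members had an unadjusted p under 0.05, and DESeq2 called Krt76, Krt78 and Krt80 in the earlier and Krt23 in the later one, all higher. From E13.5 to P0, 30 of 40 rose (75%) and none fell, beside 56.6% of all genes called, 29.8% higher and 26.8% lower, with a median of 3.41 against 0.03. In 9 of the 40 no E13.5 library had more than 3 counts, so they met the count rule only through later stages and could hardly fall. Krt6b, Krt16, Krt31, Krt32, Krt34, Krt76 and Krt83 of these are among the 30, so the count, the absence of falls and the median are partly set by the rule. In 29 members (72.5%) every P0 library lay above every E13.5 library, beside 30.2% of all genes, and in none below, beside 28.9%. Over the 5 stages together 29 of 40 passed (72.5%), beside 59.1% of all genes. Of the members, 16 were called in both contrasts with a change, 2 (Krt27 and Krt90) only from E14.5 to E15.5, 14 only from E13.5 to P0 and 8 in neither.

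The call from E14.5 to E15.5 changed when single libraries were left out. Without E14.5 replicate 1 or replicate 2 it held 7 members, without E15.5 replicate 2 it held 10, and without E15.5 replicate 3 it held 7 that rose and 1, Krt9, that fell. The share of all genes called in each fit is not given, so these counts do not show a loss particular to keratins. Krt4, Krt6a, Krt6b, Krt13, Krt31, Krt78 and Krt80 were called in all 6 such fits. Scaled to the 16 general epithelial genes in place of all genes, 6 rose from E14.5 to E15.5 (Krt4, Krt6a, Krt6b, Krt13, Krt31 and Krt78) and 21 from E13.5 to P0. The 9 lost in the latter contrast were Krt8, Krt14, Krt18, Krt24, Krt26, Krt33b, Krt79, Krt87 and Krt222. That scaling shifted the median of all genes by -0.51 and -1.23, to -0.48 and -1.20. Its counts too are given without the share of all genes called.

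**Figure D2:**
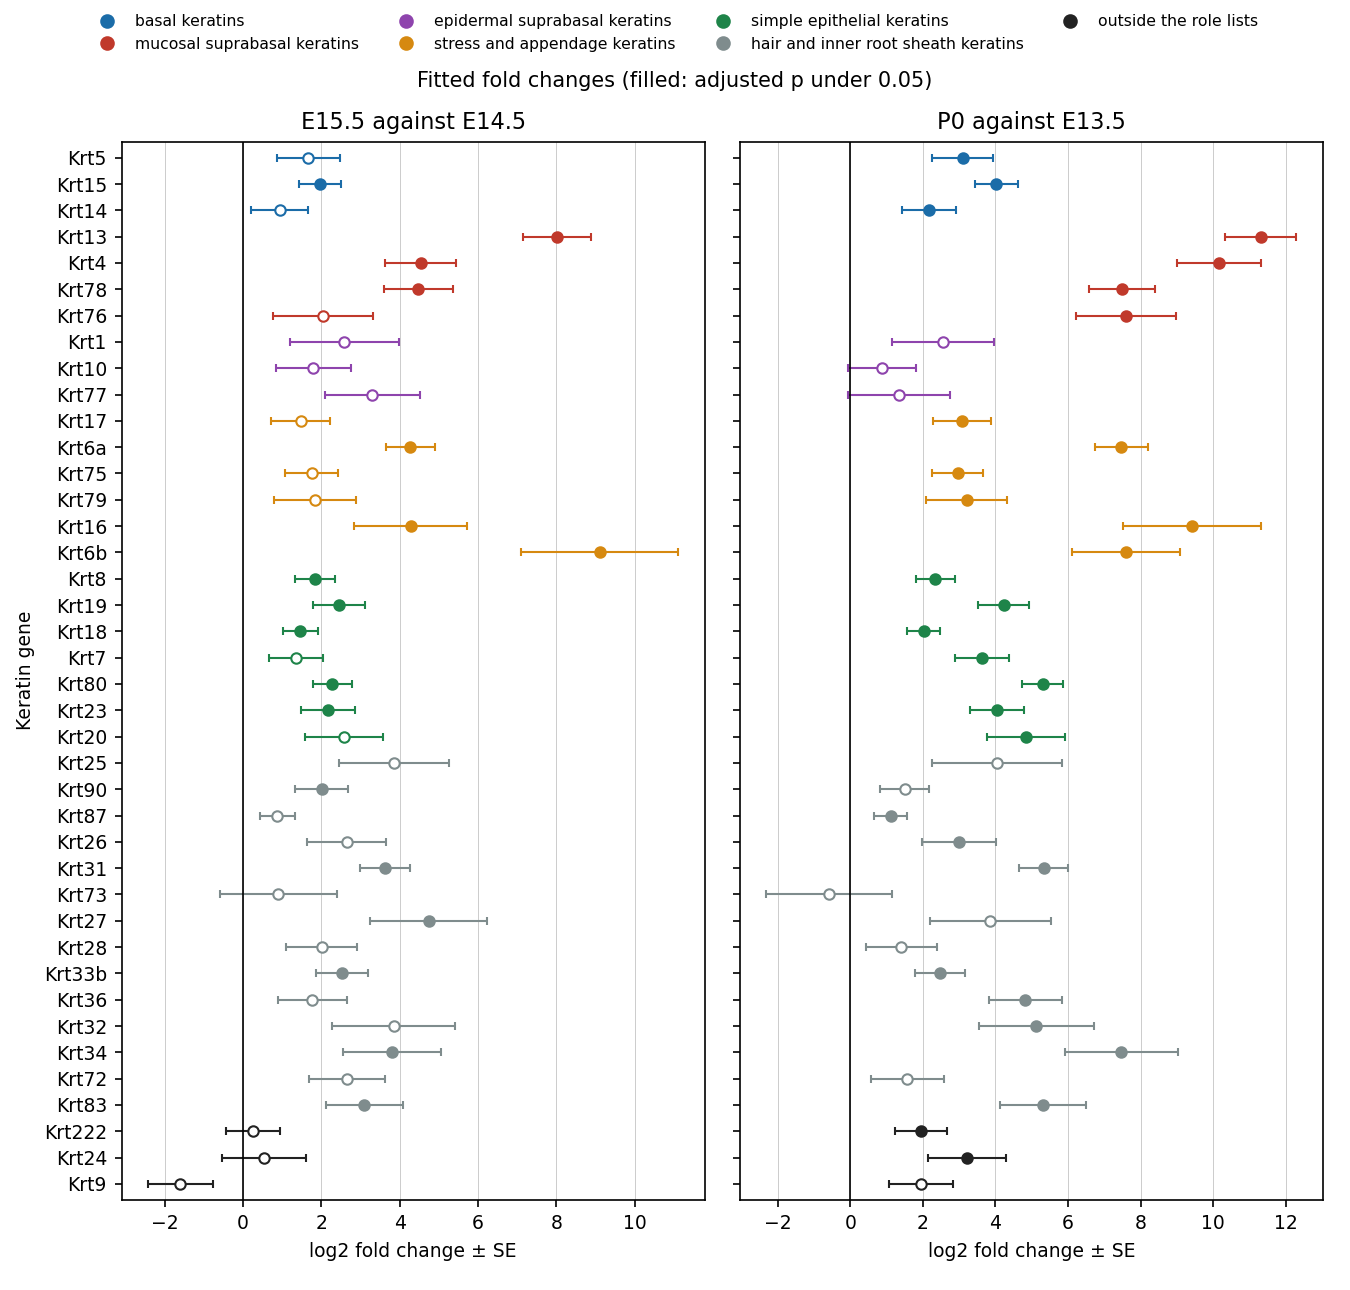
Fitted log2 fold change with its standard error for each keratin from E14.5 to E15.5 (left) and from E13.5 to P0 (right), coloured by role, filled where the adjusted p was under 0.05; genes near 0 counts in a stage, such as Krt6b, have estimates that depend on the prior count. The mucosal keratins Krt13 and Krt4 lie far to the right in both panels (8.03 and 4.53 on the left, 11.31 and 10.17 on the right), and no epidermal keratin is filled.

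Among members that reached 10 CPM in either stage compared, the mucosal pair had the largest fold changes in both contrasts with calls. Krt13, the type I keratin of the upper layers of oral lining epithelium (chromosome 11, 100117327 to 100121566), was at 0.573, 0.324 and 0.342 CPM in the E13.5 libraries and at 0.498, 0.545 and 0.997 CPM at E14.5. It was at 57.8, 146 and 331 CPM at E15.5, at 305, 382 and 483 CPM at E16.5, and at 269, 1032 and 1869 CPM at P0. The lowest library from E15.5 on (57.8 CPM) lay far above the highest earlier one (0.997 CPM), and the E15.5 libraries differed among themselves more than those of E16.5. The rise from E14.5 to E15.5 was 8.03 ± 0.87 on the log2 scale (SE, edgeR's quasi-likelihood test, adjusted p = 0.000254), and that from E13.5 to P0 11.31 ± 0.98 (adjusted p = 5.01e-06). The steps from E13.5 to E14.5 (0.72 ± 0.76, edgeR adjusted p = 0.698), E15.5 to E16.5 (1.13 ± 0.63, 0.316) and E16.5 to P0 (1.44 ± 0.64, 0.407) did not pass. Krt13 reached 29.6% of the per-length keratin total in P0 replicate 3, and at most 0.252% in any library up to E14.5.

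Krt4, the type II partner of Krt13 (chromosome 15, 101918535 to 101924735), was at 0.401, 0.423 and 0.817 CPM at E13.5 and at 1.1215, 2.06 and 6.36 CPM at E14.5. It was at 25.8, 70.3 and 125 CPM at E15.5, at 296, 149.6 and 86.3 CPM at E16.5 and at 129, 892 and 867 CPM at P0. Unlike Krt13, its E14.5 libraries all lay above its E13.5 libraries, though that step did not pass (2.54 ± 0.89, edgeR adjusted p = 0.216). It rose by 4.53 ± 0.90 from E14.5 to E15.5 (edgeR adjusted p = 0.00475) and by 10.17 ± 1.16 from E13.5 to P0 (edgeR adjusted p = 2.44e-05). Per kilobase, Krt4 stood at 0.598 to 5.45 times Krt13 in the 6 libraries up to E14.5 and at 0.153 to 0.83 times Krt13 in the 9 later ones. At the early stages these ratios rest on at most 6.36 CPM of either gene. The sum of Krt4 and Krt13 was 0.0042 to 0.0309 of that of Krt5 and Krt14 per kilobase before E15.5, 0.437 to 0.501 in the 3 E15.5 libraries, and 0.413 to 3.00 at E16.5 and P0. This ratio of upper-layer to basal keratins did not overlap between the early and the late libraries. It was nearly level across the E15.5 libraries, although their keratin sums differed from 710.0 to 3070.0 CPM.

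The other 2 members of the mucosal group were lower. Krt78 had 2 to 6 counts in each library up to E14.5, and its stage mean was 0.815 CPM at E15.5, 3.98 CPM a day later and 9.98 CPM in newborns. It was at least 18.2-fold higher at E15.5 than at E14.5, where no library passed the floor (edgeR adjusted p = 0.00443), and at least 7.13-fold without E15.5 replicate 3. Krt76, a keratin of palate and gum epithelium, had at most 4 counts in any library up to E14.5 and 2, 13 and 15 counts at E15.5. At P0 its libraries stood at 3.08, 0.579 and 6.18 CPM, replicate 2 being the low one, and the P0 mean was at least 75.8-fold above the E13.5 floor (edgeR adjusted p = 0.000563), or 42.3-fold without P0 replicate 3. Its step from E14.5 to E15.5 did not pass (2.05 ± 1.28, edgeR adjusted p = 0.252). All 4 mucosal keratins were called from E13.5 to P0 and 3 of 4 from E14.5 to E15.5, and each of these calls held in all 6 leave-one-out fits. Beside them, 29.8% and 12.7% of all genes were called higher in these 2 contrasts, and 75% and 45% of the 40 members.

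**Figure D3:**
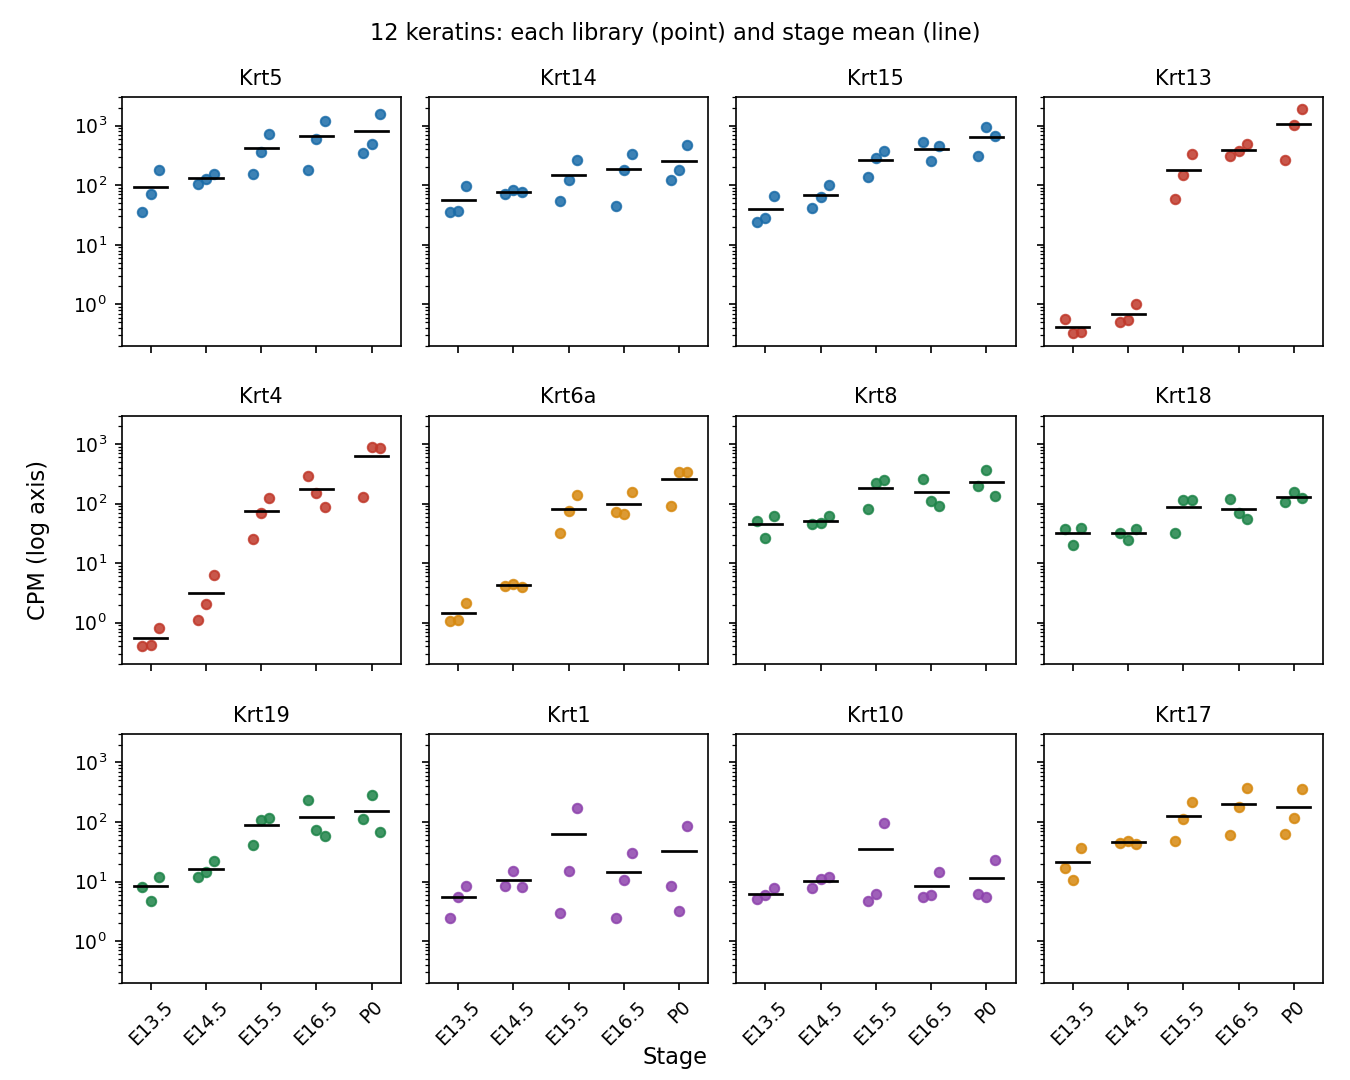
CPM of 12 keratins in each library (points, replicates 1 to 3 from left to right) with the stage mean (line), on a shared log axis. Krt13 and Krt4 climb by orders of magnitude between E14.5 and E15.5 while Krt14 overlaps across neighbouring stages, and Krt1 and Krt10 are high in 1 E15.5 library.

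Basal keratins were present from the start and rose less steeply. Krt5, the type II basal keratin (chromosome 15, 101707070 to 101712898), was at 34.9, 70.5 and 176 CPM at E13.5, at 106, 128 and 156 CPM at E14.5 and at 153, 363 and 724 CPM at E15.5. It was at 177, 599.6 and 1217 CPM at E16.5 and at 344, 493 and 1580.2 CPM at P0. Neighbouring stages overlapped, and the libraries of E16.5 were as far apart as those of different stages. The rise from E13.5 to P0 passed (3.10 ± 0.84, edgeR adjusted p = 0.00748), while the steps from E13.5 to E14.5 (0.47 ± 0.78, adjusted p = 0.83), E14.5 to E15.5 (1.67 ± 0.80, 0.138), E15.5 to E16.5 (0.68 ± 0.78, 0.641) and E16.5 to P0 (0.28 ± 0.78, 0.915) did not. With the replicate number as a block, the step from E14.5 to E15.5 passed (1.31, edgeR adjusted p = 0.0207).

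Krt14, the type I partner of Krt5 (chromosome 11, 100203162 to 100207548), was at 36.0, 37.3 and 97.9 CPM at E13.5, at 71.9, 81.8 and 76.5 CPM at E14.5 and at 54.0, 121 and 265 CPM at E15.5. It was at 45.5, 183 and 328 CPM at E16.5 and at 121, 182 and 472 CPM at P0. E16.5 replicate 1 lay below every E14.5 library. From E13.5 to P0 it rose by 2.18 ± 0.75 (edgeR adjusted p = 0.0247), a call that was lost without E13.5 replicate 1 (0.0885), E13.5 replicate 2 (0.0871) or P0 replicate 3 (0.119). None of its 4 steps passed (0.43 ± 0.72, 0.93 ± 0.72, 0.34 ± 0.72 and 0.48 ± 0.72, with edgeR adjusted p = 0.83, 0.356, 0.817 and 0.83). Of the 50-base stretches of its transcripts, 14.4% also occur in another gene, mostly Krt16, so some fragments may have been assigned elsewhere or left uncounted.

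Krt15, a type I keratin of basal cells (chromosome 11, 100131758 to 100135928), was at 24.2, 27.6 and 65.8 CPM at E13.5, at 41.3, 63.8 and 102 CPM at E14.5 and at 139, 284 and 382 CPM at E15.5. It was at 528, 258 and 447 CPM at E16.5 and at 310.0, 946 and 661 CPM at P0. Every library from E15.5 on lay above every earlier one, unlike Krt5 and Krt14. It rose by 1.96 ± 0.54 from E14.5 to E15.5 (edgeR adjusted p = 0.0195) and by 4.03 ± 0.58 from E13.5 to P0 (edgeR adjusted p = 0.000119). The call from E14.5 to E15.5 was lost without E14.5 replicate 1 (0.0939) or 2 (0.0689), or E15.5 replicate 2 (0.054) or 3 (0.0768).

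The balance between basal keratins shifted. Per kilobase, Krt5 stood at 0.777 to 1.63 times Krt14 in the 6 libraries up to E14.5 and at 2.17 to 3.12 times Krt14 in the 9 later libraries, without overlap. Krt14 made up 15% to 20.3% of the per-length keratin total in the early libraries and 2.21% to 10.6% in the late ones, also without overlap, while the share of Krt5 overlapped (12.7% to 29.3% and 6.89% to 31.4%). These ratios were looked at after the values were known and are given without a test. Over all members, type I keratins held 56.8% to 64.0% of the per-length total in each of the 15 libraries, so the balance of the types hardly moved while the total grew. At E13.5 and E14.5 Krt5 was the leading keratin per kilobase in all libraries but E13.5 replicate 1, where it was Krt8. Krt15 led in replicate 1 of E15.5, E16.5 and P0, and Krt13 in P0 replicates 2 and 3.

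**Figure D4:**
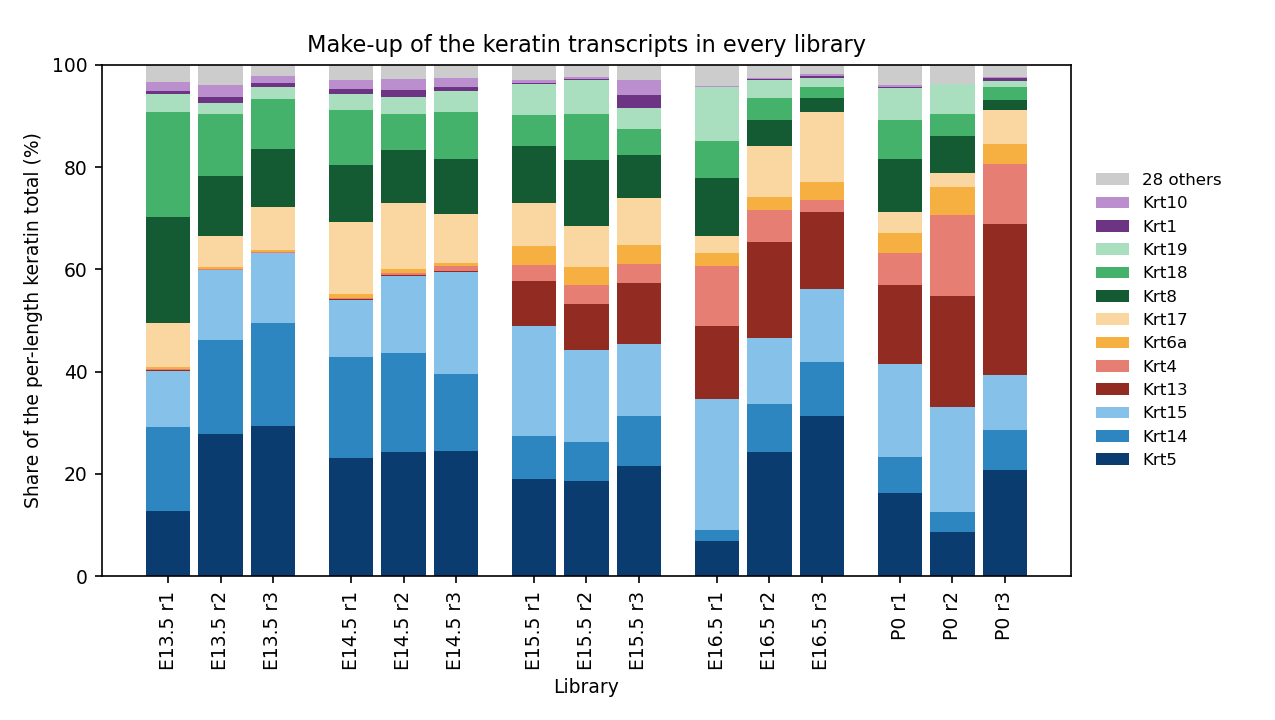
Share of 12 keratins in the per-length keratin total of each library, in percent, with the 28 others in grey. Krt14 (mid blue) shrinks from 15% to 20.3% in the early libraries to 2.21% to 10.6% from E15.5 on, where Krt13 (dark red) holds 8.67% to 29.6%.

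Epidermal keratins did not follow the mucosal ones. Krt1, the type II keratin of upper epidermal layers (chromosome 15, 101845426 to 101850794), was at 2.44, 5.49 and 8.48 CPM at E13.5 and at 8.598, 14.8 and 8.01 CPM at E14.5. It was at 2.98, 15.3 and 170.4 CPM at E15.5, at 2.44, 10.5 and 30.1 CPM at E16.5 and at 8.43, 3.26 and 84.9 CPM at P0. Its type I partner Krt10 (chromosome 11, 99385254 to 99389364) was at 5.07, 5.86 and 7.83 CPM at E13.5, at 7.87, 11.03 and 11.8 CPM at E14.5, at 4.79, 6.13 and 95.8 CPM at E15.5, at 5.55, 6.003 and 14.2 CPM at E16.5 and at 6.16, 5.61 and 22.8 CPM at P0. Both were thus present at a low level at every stage, with 1 very high library at E15.5 and the next highest value in P0 replicate 3. From E13.5 to P0 the log2 fold change was 2.55 ± 1.40 for Krt1 (edgeR adjusted p = 0.135), 0.88 ± 0.93 for Krt10 (0.438) and 1.34 ± 1.41 for Krt77, a further epidermal type II keratin (0.434). Over the 5 stages together Krt77 passed (edgeR adjusted p = 0.0140), while Krt1 (0.177) and Krt10 (0.130) did not. None of the 3 passed in any of the 5 contrasts, and with these standard errors changes of several fold were not detectable. Without E15.5 replicate 1, Krt77 was called higher from E14.5 to E15.5. Per kilobase, Krt1 and Krt10 together were 0.0414 to 0.0821 of Krt5 and Krt14 up to E14.5 and 0.0103 to 0.0304 in the later libraries other than E15.5 replicate 3, where they were 0.175.

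E15.5 replicate 3 was the highest of all 15 libraries for 9 members: Krt1, Krt10, Krt25, Krt27, Krt28, Krt72, Krt73, Krt77 and Krt79. Relative to the mean of the other 2 E15.5 libraries, 14 members were more than 5-fold higher in it and the median member 2.76-fold. Krt77 was at 8.32 CPM there against 0.188 in the mean of the others (44.2-fold), Krt25, an inner root sheath keratin, at 9.98 against 0.227 (43.9-fold), and Krt1 18.6-fold and Krt10 17.6-fold higher. Krt5, Krt8 and Krt13 stood at 2.80, 1.64 and 3.25 times the others. Krt71, an inner root sheath keratin that did not meet the count rule, had 1088 counts in this library and at most 10 in any other. Of 12 hair follicle and skin appendage genes, all 12 had more than 3 counts in it, against 8 in each of the other E15.5, E16.5 and P0 libraries. Among them Krtap3-1 and Krtap8-1, both hair shaft genes, had 9 and 26 counts there and 0 or 1 in all others, while the summed level of the 12 was 77.3 CPM against 36.6 and 72.8 in the other E15.5 libraries. Cornified envelope genes summed to 86.6 CPM against 9.91 and 22.2. The part of skin appendage transcripts in the keratin levels of this library was not tested.

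**Figure D5:**
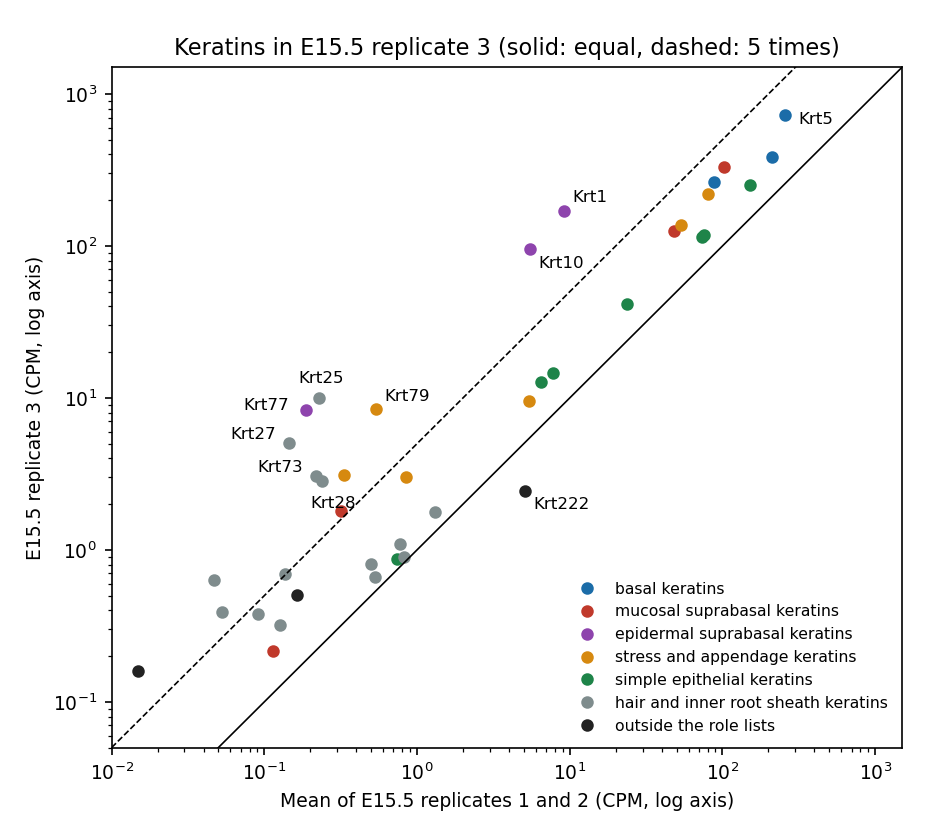
CPM of each keratin in E15.5 replicate 3 (y axis) against the mean of E15.5 replicates 1 and 2 (x axis), both on log axes, coloured by role; points on the solid line are equal and those above the dashed line more than 5 times higher. Krt77, Krt25, Krt27, Krt1, Krt10 and Krt79 lie above the dashed line, while the basal keratin Krt5 lies 2.80-fold above equality.

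Among the stress and appendage keratins, Krt6a, a type II keratin of oral and appendage epithelium (chromosome 15, 101689910 to 101694307), was at 1.07, 1.13 and 2.11 CPM at E13.5 and at 4.17, 4.51 and 4.06 CPM at E14.5. It was at 31.9, 75.0 and 138 CPM at E15.5, at 72.9, 66.1 and 154 CPM at E16.5 and at 91.4, 335 and 338 CPM at P0. The E14.5 libraries lay close together, and E13.5, E14.5 and E15.5 did not overlap. It rose by 4.26 ± 0.62 from E14.5 to E15.5 (edgeR adjusted p = 0.00115) and by 7.47 ± 0.73 from E13.5 to P0 (edgeR adjusted p = 9.8e-06). Krt6b, its neighbour on the chromosome, had no count in the 3 E14.5 libraries and 13, 30 and 214 at E15.5, which is at least 28.01-fold higher than the floor (edgeR adjusted p = 0.00947), or 7.44-fold without E15.5 replicate 3. Since 49.5% of the 50-base stretches of Krt6a and 50.1% of those of Krt6b occur in another gene, mostly in each other, their separate values are uncertain.

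Krt17, a type I keratin that can pair with Krt6a (chromosome 11, 100256217 to 100261029), was at 16.6, 10.6 and 36.2 CPM at E13.5, at 45.2, 48.0 and 43.2 CPM at E14.5 and at 47.8, 113 and 219 CPM at E15.5. It was at 59.5, 176 and 376 CPM at E16.5 and at 62.5, 115 and 355 CPM at P0. It was thus well expressed before Krt6a, and its step from E14.5 to E15.5 did not pass (1.47 ± 0.76, edgeR adjusted p = 0.165), whereas E13.5 to P0 did (3.07 ± 0.80, edgeR adjusted p = 0.00598). Per kilobase, Krt6a stood at 0.0374 to 0.0681 times Krt17 up to E14.5 and at 0.240 to 1.87 times Krt17 later, without overlap. Krt16, the other type I keratin of this group, had 0, 1 and 1 counts at E13.5 and 47, 61 and 210 at E15.5, but 1 count in E16.5 replicate 1 against 88 and 246 in the other E16.5 libraries. Its P0 mean was at least 188-fold above the E13.5 floor (edgeR adjusted p = 0.00115), or 55.4-fold without P0 replicate 3, and 37.6% of its 50-base stretches are shared, mostly with the gene Gm11597. Krt75, a keratin of the hair companion layer, was at 1.304, 0.592 and 1.71 CPM at E13.5, at 1.0125, 2.27 and 2.68 CPM at E14.5, at 3.94, 6.80 and 9.49 CPM at E15.5, at 23.0, 4.68 and 6.26 CPM at E16.5 and at 6.35, 16.6 and 5.01 CPM at P0. It rose by 2.96 ± 0.71 from E13.5 to P0 (edgeR adjusted p = 0.00349), its highest library being E16.5 replicate 1. Krt79 reached 8.43 CPM in E15.5 replicate 3 and 0.472 and 0.611 in the other E15.5 libraries. All 6 members of this group rose from E13.5 to P0, and 3 (Krt6a, Krt6b and Krt16) from E14.5 to E15.5, of which Krt16 was lost without any single E14.5 library or E15.5 replicate 2 or 3. The shares called higher were 29.8% and 12.7% over all genes, and 75% and 45% over the 40 members. The call of Krt79 from E13.5 to P0 was lost without E13.5 replicate 1 or 2 or P0 replicate 2.

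Simple epithelial keratins rose too, but differently among libraries. Krt8 (chromosome 15, 101996698 to 102004482) was at 50.7, 26.9 and 61.1 CPM at E13.5, at 46.0, 47.9 and 61.3 CPM at E14.5 and at 80.4, 224 and 249.99 CPM at E15.5. It was at 262, 112 and 91.6 CPM at E16.5 and at 197, 372 and 136 CPM at P0. Every library from E15.5 on lay above every earlier one, with no further rise of the stage mean to E16.5 (184.8 and 154.96 CPM). It rose by 1.84 ± 0.52 from E14.5 to E15.5 (edgeR adjusted p = 0.0224) and by 2.34 ± 0.53 from E13.5 to P0 (edgeR adjusted p = 0.00239). Krt18, the partner of Krt8 (chromosome 15, 102028180 to 102032027), was at 36.9, 19.96 and 38.4 CPM at E13.5, at 32.2, 24.6 and 38.1 CPM at E14.5 and at 31.9, 115 and 115 CPM at E15.5. It was at 119.9, 68.5 and 54.7 CPM at E16.5 and at 105, 157 and 126 CPM at P0. E15.5 replicate 1 lay among the E14.5 libraries. Krt18 rose by 1.47 ± 0.44 from E14.5 to E15.5 (edgeR adjusted p = 0.0295) and by 2.03 ± 0.45 from E13.5 to P0 (edgeR adjusted p = 0.00222). Of the 50-base stretches of Krt8, 26.9% occur in the pseudogene Krt8-ps.

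Krt19, a small type I keratin of simple and some basal epithelia (chromosome 11, 100140810 to 100148665), was at 8.21, 4.72 and 11.9 CPM at E13.5, at 12.04, 14.7 and 22.5 CPM at E14.5 and at 41.7, 109 and 119 CPM at E15.5. It was at 229.9, 72.1 and 58.6 CPM at E16.5 and at 113, 286 and 68.7 CPM at P0. Its lowest late library lay above its highest early one. It rose by 2.45 ± 0.65 from E14.5 to E15.5 (edgeR adjusted p = 0.0173) and by 4.23 ± 0.71 from E13.5 to P0 (edgeR adjusted p = 0.00032). Krt7, a type II keratin of ducts and glands (chromosome 15, 101411043 to 101430313), was at 9.40, 6.32 and 14.8 CPM at E13.5, at 9.84, 10.6 and 14.4 CPM at E14.5 and at 12.1, 35.2 and 41.7 CPM at E15.5. It was at 154, 45.1 and 33.2 CPM at E16.5 and at 85.3, 246 and 44.5 CPM at P0. Like Krt8 and Krt19 it was highest within E16.5 in replicate 1 and lowest within P0 in replicate 3. Its step from E14.5 to E15.5 did not pass (1.35 ± 0.69, edgeR adjusted p = 0.161), and its rise from E13.5 to P0 did (3.62 ± 0.75, edgeR adjusted p = 0.00137).

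Krt80, a type II keratin of many epithelia (chromosome 15, 101347444 to 101370162), was at 0.946, 0.676 and 1.90 CPM at E13.5, at 1.57, 1.79 and 2.82 CPM at E14.5 and at 5.34, 10.3 and 14.5 CPM at E15.5. It was at 33.8, 20.8 and 30.4 CPM at E16.5 and at 24.4, 74.4 and 40.6 CPM at P0. Krt80 and Krt78 were the 2 members in which every E16.5 library lay above every E15.5 library, beside 15.7% of all genes, and in both E14.5 lay lower still. It rose by 2.28 ± 0.50 from E14.5 to E15.5 (edgeR adjusted p = 0.00708) and by 5.30 ± 0.57 from E13.5 to P0 (edgeR adjusted p = 1.62e-05). Krt23 (chromosome 11, 99477974 to 99493137) was at 1.38, 2.44 and 2.63 CPM at E13.5, at 1.88, 1.26 and 2.53 CPM at E14.5, at 1.42, 11.48 and 12.7 CPM at E15.5, at 7.64, 7.22 and 10.2 CPM at E16.5 and at 12.8, 36.6 and 56.9 CPM at P0. Every P0 library lay above every earlier one, and E15.5 replicate 1 stayed at the early level. Krt23 rose by 4.04 ± 0.73 from E13.5 to P0 (edgeR adjusted p = 0.000568). Krt20, a keratin of gut lining, Merkel cells and taste buds, had 6 to 247 counts from E15.5 on and rose by 4.84 ± 1.07 from E13.5 to P0 (edgeR adjusted p = 0.0021), with 2.57 CPM in E16.5 replicate 1 and 7.53 in P0 replicate 2 as its highest values. All 7 simple epithelial keratins rose from E13.5 to P0, also in each of the 6 leave-one-out fits, and 5 from E14.5 to E15.5. Over all genes 29.8% and 12.7% were called higher in these contrasts, and over the 40 members 75% and 45%. Scaled to the general epithelial genes, 5 of the 7 rose from E13.5 to P0, Krt8 (1.15, edgeR adjusted p = 0.0589) and Krt18 (0.81, 0.139) being lost, and none from E14.5 to E15.5. Of the 5 only Krt80 stayed called without E15.5 replicate 3, and Krt8, Krt18, Krt19 and Krt23 were also lost without E14.5 replicate 1 or 2 or E15.5 replicate 2.

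Simple and basal keratins varied apart among the libraries of E16.5 and of P0. Per kilobase, Krt5 and Krt14 together stood at 0.491, 3.60 and 8.73 times Krt8 and Krt18 in the E16.5 libraries and at 1.298, 1.095 and 6.29 times them at P0, against 1.59, 1.20 and 2.31 in those of E15.5 and 0.705 to 2.52 in the 6 early libraries. The libraries with the lowest ratios at E16.5 and P0 were those with the most Krt7 and Krt19. Nasal and ciliated markers summed to 1755, 665 and 631 CPM at E16.5, in the same order as the simple keratins (809.7, 326 and 279 CPM), but to 1772, 1552 and 2405 CPM at P0, where the simple keratins were at 539, 1179.5 and 473 CPM. The part of nasal epithelium in these levels was not tested.

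Hair and inner root sheath keratins stayed low, at a sum of 1.43 to 2.65 CPM for the 14 members up to E14.5 and of 5.02 to 12.5 CPM later, other than 28.5 CPM in E15.5 replicate 3. From E14.5 to E15.5, 6 rose (Krt27, Krt31, Krt33b, Krt34, Krt83 and Krt90) with edgeR adjusted p from 0.00283 to 0.0458. Krt34 and Krt83, with no E14.5 library above 3 counts, were at least 3.70-fold and 4.16-fold higher, or 1.19-fold and 2.04-fold without E15.5 replicate 3, and the other 4 rose by 2.01 to 4.74 on the log2 scale. Only Krt31 was called in all 6 leave-one-out fits. Without E15.5 replicate 3, or without E14.5 replicate 1 or 2, the other 5 were lost, without E14.5 replicate 3 also Krt27, Krt34 and Krt83, and without E15.5 replicate 2 Krt34 and Krt83, and Krt90 was lost in each of the 6. From E13.5 to P0, 8 rose (Krt26, Krt31, Krt32, Krt33b, Krt34, Krt36, Krt83 and Krt87), of which Krt26 was lost without E13.5 replicate 1 or 3 or P0 replicate 1, Krt32 without E13.5 replicate 1 or P0 replicate 3, and Krt87 without E13.5 replicate 1 or 2 or P0 replicate 1. Krt25, Krt27, Krt28, Krt72, Krt73 and Krt90 did not pass from E13.5 to P0. Beside the 6 and the 8 of 14 stand 12.7% and 29.8% of all genes called higher, and 45% and 75% of the 40 members. Krt31, a hair shaft keratin, had 1 to 4 counts in each library up to E14.5 and 19 to 101 later, with its highest level, 2.18 CPM, in E16.5 replicate 1. Its P0 mean was at least 33.6-fold above the E13.5 floor (edgeR adjusted p = 4.72e-05). Hair keratins are similar in sequence, and 23.2% to 36.9% of the 50-base stretches of Krt31, Krt33b, Krt34, Krt83 and Krt87 occur in another gene.

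The 3 members outside these groups behaved in different ways. Krt222, a short keratin-like gene, had 33 to 444 counts in each library and rose by 1.95 ± 0.72 from E13.5 to P0 (edgeR adjusted p = 0.0346), a call lost without any single E13.5 library or P0 replicate 1. It was the only member lower in E15.5 replicate 3 (2.46 CPM) than in the mean of the other 2 (5.06 CPM) of its stage, and its highest level, 11.4 CPM, was in E16.5 replicate 2. Krt24 had 6 to 114 counts and rose by 3.21 ± 1.07 from E13.5 to P0 (edgeR adjusted p = 0.0221), a call lost without E13.5 replicate 1 or 2 or P0 replicate 3. Krt9, the keratin of palm and sole skin, had 0 to 22 counts and passed in no contrast. Without E15.5 replicate 3 its 0 and 2 counts at E15.5, against 22, 7 and 11 at E14.5, were called lower (edgeR adjusted p = 0.0349), at least 4.22-fold against the floor of 3 counts per library.

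Neighbours in a cluster stood at unlike levels in some stretches and at similar levels in others. Krt25, Krt26, Krt27 and Krt28, in a row on chromosome 11, were at 0.215, 0.318, 0.284 and 0.280 CPM per kilobase at P0. No measure over all neighbours is given. Krt13, Krt15 and Krt19 follow each other within 31.3 kb of chromosome 11, and at P0 stood at 580.2, 362 and 83.95 CPM per kilobase. Krt9 lies between Krt19 and Krt14, 38.1 and 9.92 kb from them, and was at 0.0932 CPM per kilobase. On chromosome 15, Krt76, Krt4, Krt79 and Krt78 lie in a row within 69.9 kb and all were called higher at P0 than at E13.5 (edgeR adjusted p from 2.44e-05 to 0.0266). So were 75% of the 40 members and 29.8% of all genes. Krt4, Krt79 and Krt78 rose by 10.17, 3.21 and 7.49, and for Krt76 the bound given above holds. Krt1 and Krt77, the next members beyond Krt76, did not pass in that contrast.

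Junction genes, regulators and general epithelial genes had smaller median fold changes than the keratins, but not every epithelial list did. Nasal and ciliated genes had larger medians, 4.28 from E14.5 to E15.5 and 8.04 from E13.5 to P0. Cornified envelope genes had medians of 1.77 and 5.97 in the same contrasts. Of 18 genes for desmosomes, hemidesmosomes and their linkers, which anchor keratin filaments to the cell border, 4 rose from E14.5 to E15.5 (median log2 fold change 1.09) and 12 from E13.5 to P0 (median 1.92), and none fell. By level the leading ones were Dst, Plec, Dsp and Jup. Plec, the linker plectin that muscle also expresses, rose by 1.06 ± 0.21 from E14.5 to E15.5 (edgeR adjusted p = 0.00495), and Jup, plakoglobin, by 0.79 ± 0.15 from E13.5 to P0 (edgeR adjusted p = 0.000997). Dsp, desmoplakin, did not pass from E13.5 to P0 (1.38 ± 0.57, edgeR adjusted p = 0.0563), nor did Dst, dystonin (0.62 ± 0.32, 0.109). Of 17 tested regulators of stratified epithelium, 1 rose from E14.5 to E15.5 and 8 from E13.5 to P0 (medians 0.65 and 0.98). Klf4, a factor of upper layers, rose in both, by 0.75 ± 0.25 (edgeR adjusted p = 0.0461) and 1.41 ± 0.26 (0.000596). Of 18 cornified envelope genes, 14 passed the count filter, several of them near 0 at E13.5 and so only through later stages, and nothing is read from their count. Tgm1, Cnfn, Sbsn and Tgm3 were at 0.929, 0.0868, 2.63 and 0.212 CPM at E13.5 and at 24.3, 27.0, 12.2 and 20.2 CPM at P0. Of 16 general epithelial genes, 2 rose from E14.5 to E15.5 and 9 from E13.5 to P0, with medians of 0.75 and 1.48 against 2.23 and 3.41 for the keratins. Beside these counts stand the 12.7% and 29.8% of all genes called higher in the same contrasts. The medians are not compared on an equal footing. At E13.5, 25 of the 40 keratins had a mean under 1 CPM. In 9 keratins no E13.5 library had more than 3 counts, so these met the count rule only through later stages. Among 16 other intermediate filament genes, 8 rose and 3 fell from E13.5 to P0. Vim, vimentin of mesenchyme, rose by 0.87 ± 0.15 (edgeR adjusted p = 0.000364), and Des, desmin of muscle, from 25.96 to 1217 CPM (5.55 ± 0.79, edgeR adjusted p = 0.000107).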

How the data were processed

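Whole palates of wild-type mice were sequenced as RNA at 5 stages, with 3 libraries per stage. The deposited table holds counts of fragments per gene, which the authors made with featureCounts 2.0.1 on GENCODE M18, counting read pairs on the reverse strand, per the file headers. The input named there was adapter-trimmed and duplicate-marked. HISAT2 2.2.1, cutadapt 3.4 and mm10 are named in the submitters' processing notes. Symbols came from GENCODE M21, which matched 54165 of 54232 gene identifiers.

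Counts were fitted with edgeR 4.0.16 (R 4.3.3) by the quasi-likelihood test, with TMM scaling, all 15 libraries in 1 fit and 1 coefficient per stage. The filterByExpr filter (minimum count 10) left 22151 genes. P-values were adjusted by the Benjamini-Hochberg method over these genes, with a threshold of 0.05, and SE is the log2 fold change divided by the square root of F. Members and gene lists were chosen with earlier results of these data known. By rule, members with a stage mean of at least 10 CPM were given in every library and the rest as ranges, with up to 4 examples of each other list by mean CPM. Low members given singly, and the ratios between members, were chosen after their values were seen. Alternatives were DESeq2 1.42.0, other scalings and filters, a replicate block, fits on the libraries of a contrast alone and leaving out each library. At 21470759 to 69019565 counts per library, fold changes of genes with a few counts are imprecise.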

Additional observations from a re-analysis of the deposited data

How the results depend on the processing

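With DESeq2, 1 keratin passed from E13.5 to E14.5, 3 from E15.5 to E16.5 and 1 from E16.5 to P0, where edgeR called 0. Scaled to 16 general epithelial genes, 6 passed from E14.5 to E15.5 in place of 18. With a mean of at least 1 CPM, only 21 members were tested, of which 19 passed from E13.5 to P0 and 16 over the 5 stages. On the 6 libraries of the contrast alone, 23 passed from E13.5 to P0. Leaving out 1 library gave 7 to 20 calls from E14.5 to E15.5, 23 to 31 from E13.5 to P0 and 25 to 33 over the 5 stages. The share of all genes called is not given for these settings or for the replicate block below. The counts therefore do not show a change particular to keratins. The sign turned for 2 basal keratins in steps that did not pass. From E16.5 to P0, scaled to epithelial genes, Krt14 was at -0.16 and Krt5 at -0.36, where this scaling put the median of all genes at -0.39 (0 without it), and leaving out 1 library gave -0.30 to 1.17 for Krt14 and -0.67 to 1.05 for Krt5. From E15.5 to E16.5 the same gave -0.36 to 1.09 for Krt14 and -0.090 to 1.36 for Krt5. None of these 4 values passed in any setting run, and the cause was not tested. The replicate numbers are not said to mark a batch. The 30 same-numbered pairs of libraries correlated at a mean of 0.0594 (range -0.303 to 0.548), against -0.0321 (-0.498 to 0.426) for 60 others. The ranges overlapped, and 9 of the 30 and 19 of the 60 pairs were over 0.1. Within every stage, however, Krt5 and the summed basal keratins increased from replicate 1 through 2 to 3. The sum of all keratins was highest in replicate 3 at every stage, while the simple keratins did not keep this order. What this order reflects was not tested, and the main fit does not account for it. With the replicate block, 17 keratins passed from E14.5 to E15.5, 30 from E13.5 to P0 and 28 over the 5 stages, and Krt5 passed from E14.5 to E15.5 (1.31, edgeR adjusted p = 0.0207).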
